A study of Homo sapiens and Mus musculus with 76 samples.

Results

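The genes described here are 10 members of the YAP and TEAD transcription programme, CTGF, CYR61, ANKRD1, AMOTL1, AMOTL2, LATS2, AXL, TEAD1, YAP1 and WWTR1, taken by their symbols from the 23571 gene symbols of the human expression tables. All 10 were present. The study compared Smart-Seq2, a method that copies full-length polyadenylated RNA from very small samples, with the commercial SMART-Seq kit and with Smart-Seq2 variants. Of its 76 libraries, the 63 human ones were used here and the 13 mouse ones were not.

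HEK293T is a human embryonic kidney line that carries the SV40 large T antigen, and DG-75 is a B cell line from a Burkitt lymphoma. Single HEK293T cells were prepared with Smart-Seq2 (7 cells), with variants numbered 1 to 4 (8, 8, 6 and 6 cells in that order) and with SMART-Seq (4 cells). Single DG-75 cells were prepared with Smart-Seq2 (7 cells). A Smart-Seq2 input series of HEK293T held 1 ng (n = 3), 100 pg (n = 3) and 10 pg (n = 2) of total RNA, and lysed pools of 100, 50 and 10 cells (n = 3 each). No group carried a genetic change or a drug according to the labels, which do not say how the variants differ or which culture a cell came from. Each group of single cells was therefore treated as 1 sample, with no p-value, and p-values in the input series measure only the spread between libraries, which may be technical.

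YAP, encoded by YAP1, and TAZ, encoded by WWTR1, are transcriptional co-activators that do not bind DNA themselves. When the Hippo kinases LATS1 and LATS2 phosphorylate them they stay in the cytoplasm, and when they are not phosphorylated they enter the nucleus and act through TEAD factors such as TEAD1. Their best known target genes encode the secreted matricellular proteins CTGF and CYR61 and the ankyrin repeat protein ANKRD1. Other targets, AMOTL1, AMOTL2 and LATS2, encode inhibitors of YAP and TAZ and so close a feedback loop, and AXL encodes a receptor tyrosine kinase.

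TEAD factors bind the M-CAT element, whose core reads GGAATG. The core was searched on both strands (GGAATG or CATTCC, which do not overlap each other) in the 250 bases before each start site in the RefSeq promoter table (GRCh38.p14), in which 8 of the 10 genes matched. CYR61 and TEAD1 had no entry. The core stood in 5 of the 11 windows of the 8 genes, and in 11.9% of all 35116 windows. The CTGF window held 3 copies, first bases at -169, -104 and -95 from the start site, and 0.0797% of all windows held 3 or more. The ANKRD1 window held 2 copies, at -220 and -128, and 0.928% of all windows held 2 or more. AMOTL2 had 1 copy on the opposite strand at -69 of its second listed start site, YAP1 had 1 at -162, and AXL had 1 on the opposite strand at -212 of its second start site. AMOTL1, LATS2 and WWTR1 had none in these windows. A match is a string of letters and not a shown binding site. The windows of CTGF, ANKRD1 and AMOTL2 are printed 5′ to 3′ along the gene's strand, which is the minus strand for all of them, the first pair because they hold more than 1 copy and AMOTL2 because it differed most between cells and RNA in the values below. Capitals mark the core, and the coordinates are chr6:131951373-131951622, chr10:90921088-90921337 and chr3:134374448-134374697.
CTGF: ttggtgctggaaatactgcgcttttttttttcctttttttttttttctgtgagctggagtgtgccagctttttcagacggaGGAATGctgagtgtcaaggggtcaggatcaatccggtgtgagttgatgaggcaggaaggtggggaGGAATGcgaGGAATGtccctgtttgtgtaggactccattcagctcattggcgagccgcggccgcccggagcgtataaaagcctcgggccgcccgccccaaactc
ANKRD1: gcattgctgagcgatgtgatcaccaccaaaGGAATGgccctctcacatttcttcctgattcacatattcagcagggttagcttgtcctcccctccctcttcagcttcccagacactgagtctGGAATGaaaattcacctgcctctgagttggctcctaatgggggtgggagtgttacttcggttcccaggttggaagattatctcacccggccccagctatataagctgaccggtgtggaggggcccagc
AMOTL2: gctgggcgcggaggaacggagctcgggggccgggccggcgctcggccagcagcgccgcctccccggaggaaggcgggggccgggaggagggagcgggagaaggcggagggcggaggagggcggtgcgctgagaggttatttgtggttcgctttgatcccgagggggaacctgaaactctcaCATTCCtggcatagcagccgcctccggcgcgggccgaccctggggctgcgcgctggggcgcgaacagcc

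Library depth, counted as reads assigned to genes, was 5.29 M to 27.9 M reads (1 M is 1000000 reads) in the 39 single HEK293T cells, 2.24 M to 7.88 M in the DG-75 cells and 1.88 M to 5.55 M in the input series. The line labels were checked against markers. The 10 B cell markers summed to 796 to 8624 CPM (reads per 1000000 gene reads) in DG-75 cells and to at most 23.3 CPM in Smart-Seq2 HEK293T cells, in which 6 of them, CD79B and CD74 among them, had no read. The 10 HEK293T markers summed to 641 to 1634 CPM in Smart-Seq2 HEK293T cells and to 5.20 to 148 CPM in DG-75 cells. The first and second of the 100-cell libraries were close to copies: their mean chi-square per gene was 1.81, against 3.21 for the next closest pair.

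To compare levels between genes, the deposited RPKM (reads scaled to transcript length and library depth) was used, since CPM favours long transcripts such as TEAD1 and AMOTL1. In 1 ng of RNA the mean RPKM levels fell in the order CYR61 (37.7 ± 5.23, SD, n = 3), CTGF (20.3 ± 5.27), AMOTL2 (16.3 ± 3.65), ANKRD1 (15.8 ± 4.42), AMOTL1 (9.66 ± 0.998), WWTR1 (8.70 ± 1.81), TEAD1 (3.84 ± 0.720), YAP1 (1.99 ± 0.303), LATS2 (0.479 ± 0.0932) and AXL (0.0501 ± 0.0868). AMOTL2 and ANKRD1 lay within 1 SD of each other, as did AMOTL1 and WWTR1. CTGF exceeded AMOTL2 and ANKRD1 by less than its own SD but by more than theirs. CYR61 was thus the most abundant member per length in 1 ng of RNA, and WWTR1 message was more abundant than YAP1 message. In 100 pg CYR61 also led, with 43.0 ± 7.09 RPKM (n = 3), and CTGF (20.6 ± 7.98) and ANKRD1 (20.6 ± 3.53) were level. In 100 lysed cells the order had changed: ANKRD1 led with 11.02 ± 2.29 RPKM (n = 3), CYR61 followed with 5.33 ± 0.516, and CTGF with 4.56 ± 1.87 overlapped it. AMOTL2 had moved below YAP1, with 1.74 ± 0.403 against 2.32 ± 0.520 RPKM, a gap smaller than the SDs together.

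Lysed cells were compared with purified RNA of the same line. The labels do not say whether the RNA and the pools came from the same culture. The way the RNA was brought in and a difference between cultures therefore cannot be told apart. CYR61, CTGF, AMOTL1, AMOTL2 and WWTR1 were lower in 100 cells than in 1 ng of RNA, LATS2 was higher, and ANKRD1, TEAD1 and YAP1 did not pass the test. In pooled samples of this kind, fewer cells that express a gene and less RNA per cell cannot be told apart.

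AMOTL2, an angiomotin-like scaffold that holds YAP at junctions, had 62.5, 98.6 and 87.4 CPM in the 1 ng libraries and 8.76, 10.996 and 6.84 CPM in the 100-cell libraries. Its log2 fold change was -3.0 ± 0.25 (SE), 8.0-fold lower in cells, with an adjusted p of 1.3e-08 in the edgeR quasi-likelihood test. CYR61 had 83.5, 99.3 and 76.1 CPM in RNA and 11.8, 13.5 and 11.3 CPM in cells, a log2 fold change of -2.59 ± 0.22 (adjusted p = 1.33e-08). CTGF had 32.4, 55.4 and 50.0 CPM in RNA and 6.52, 9.62 and 14.9 CPM in cells, and fell by 1.90 ± 0.28 on the log2 scale (adjusted p = 1.23e-05). For each of these genes every cell library lay below every RNA library. AMOTL1, the other angiomotin-like gene, was at 78.2, 91.0 and 96.0 CPM in RNA and 28.9, 30.2 and 26.8 CPM in cells (log2 fold change -1.39 ± 0.19, adjusted p = 6.27e-06). WWTR1 was at 35.1, 48.5 and 33.7 CPM in RNA and 18.3, 18.7 and 12.6 CPM in cells (log2 fold change -1.01 ± 0.24, adjusted p = 0.0015).

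LATS2, the kinase that inactivates YAP and TAZ, moved the other way. It had 3.19, 2.79 and 2.15 CPM in 1 ng of RNA, which is 7 to 12 reads a library, and 7.13, 9.07 and 6.30 CPM in 100 cells, a log2 fold change of 1.66 ± 0.36 (adjusted p = 0.000611). TEAD1 had 44.1, 36.6 and 30.4 CPM in RNA and 36.5, 29.4 and 24.8 CPM in cells, overlapping ranges with a log2 fold change of -0.06 ± 0.23 (adjusted p = 0.822). YAP1 (0.36 ± 0.29, adjusted p = 0.288) and ANKRD1 (-0.30 ± 0.26, adjusted p = 0.317) also had overlapping ranges. AXL had 0, 2 and 0 reads in the 1 ng libraries and 17, 11 and 11 reads in the 100-cell libraries and was left out of the fit by the filter on low counts. With no filter it was called higher in 100 cells, with a log2 fold change of 3.799 (edgeR adjusted p = 2.31e-05), and in the other alternatives that fitted it and kept a 1 ng read the value ran from 3.21 to 4.03 (adjusted p 0.000372 to 0.00993).

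Most genes of the table differed in this comparison, so the count of members has to be read against that. Of 11487 genes tested, 62.7% were called, 29.7% higher and 33.1% lower in cells, and 65.8% had ranges that did not overlap. Of the 9 members tested, 6 were called, which is near the background, with 1 higher and 5 lower, and the same 6 had ranges that did not overlap. The median log2 fold change of the 9 was -1.01, and that of all genes tested was -0.03. With library totals in place of TMM factors the all-gene median shifted by -0.23, and 2501 higher and 4535 lower genes were called in place of 3406 and 3802. The LATS2 and WWTR1 calls were lost when all 6 input groups shared 1 fit (adjusted p = 0.229 and 0.273), and ANKRD1 became lower, at -0.75 (adjusted p = 0.00476), with the trend of transcript length and GC content removed.

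**Figure D1:**
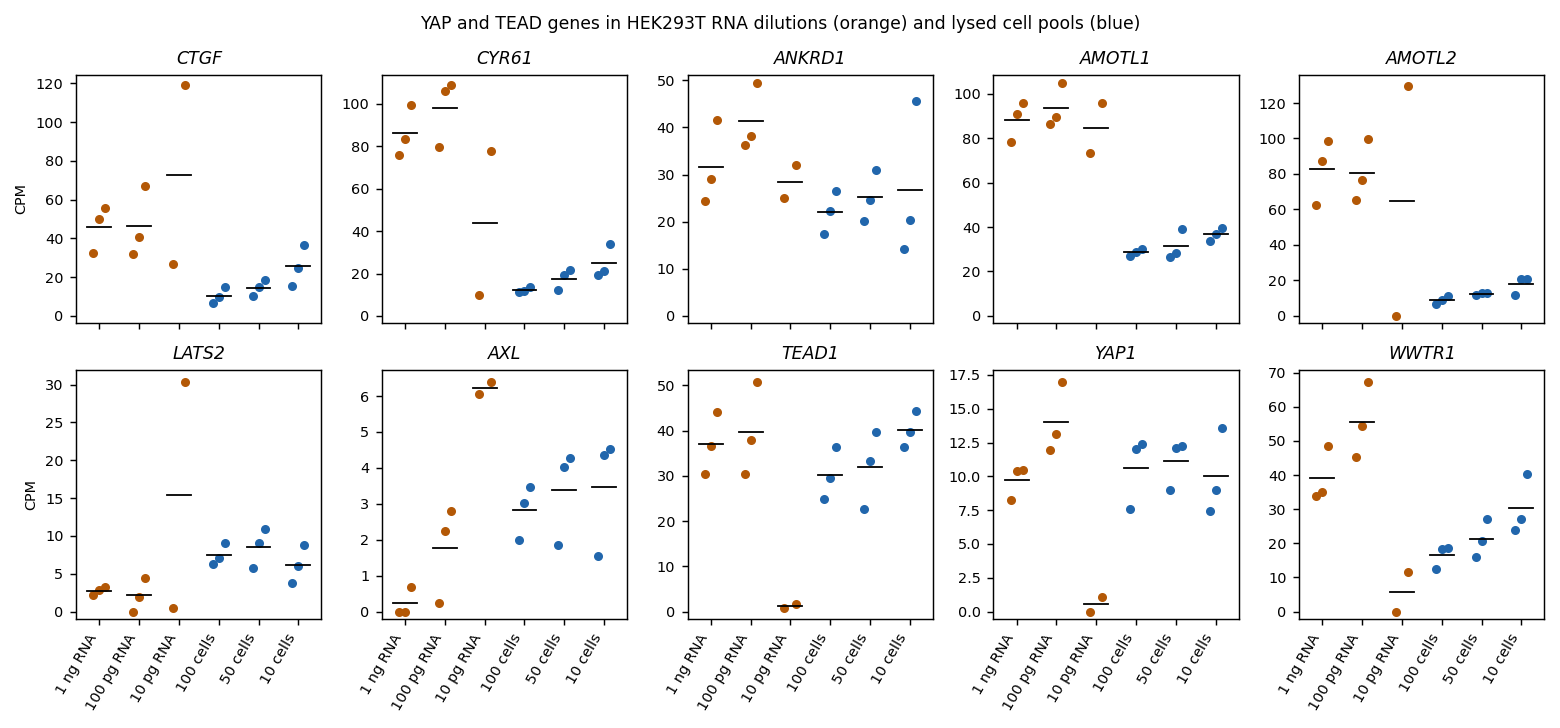
CPM of each of the 10 genes (vertical axes, linear, from 0, 1 panel a gene) in every library of the input series, RNA dilutions in orange and lysed pools in blue, each point 1 library and each line the group mean. CYR61, AMOTL1 and AMOTL2 lie lower in all 9 pools than in all 6 libraries of 1 ng and 100 pg, while TEAD1, YAP1 and ANKRD1 overlap between these sources, and TEAD1 drops to 3 and 2 reads in the 10 pg libraries.

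The comparison was repeated at the lower input, 10 cells against 100 pg of RNA, where 19.3% of 11671 genes were called, 7.81% higher and 11.5% lower in cells. All 10 members were tested here, and 4 were called, all lower in cells. AMOTL2 had 65.3, 99.7 and 76.8 CPM in RNA and 20.9, 20.8 and 11.8 CPM in 10 cells, a log2 fold change of -2.19 ± 0.29 (edgeR adjusted p = 0.000226). CYR61 had 79.5, 106 and 109 CPM in RNA and 19.4, 34.1 and 21.0 CPM in cells (log2 fold change -2.0 ± 0.26, adjusted p = 0.00023). AMOTL1 had 89.5, 105 and 86.5 CPM in RNA and 33.8, 39.5 and 36.8 CPM in cells (log2 fold change -1.37 ± 0.21, adjusted p = 0.00054). The AMOTL2 call was lost when all 6 input groups shared 1 fit (-2.20, adjusted p = 0.161). For these genes and WWTR1 the groups did not overlap, which held for 37.8% of all genes. The median log2 fold change was -0.76 for the members and -0.02 for all genes.

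WWTR1 was also lower, at -0.89 ± 0.28 (adjusted p = 0.0408 in edgeR), but the call was lost without any 1 of 4 libraries, the 100 pg libraries 3 and 4 and the 10-cell libraries 1 and 3 (adjusted p 0.0601 to 0.158), and with all 6 groups in 1 fit (0.454). CTGF had 40.8, 66.8 and 32.2 CPM in RNA and 15.6, 24.9 and 36.5 CPM in cells, so the groups overlapped (log2 fold change -0.88 ± 0.36, adjusted p = 0.114). LATS2 stood at 1.51 ± 1.01 (adjusted p = 0.336), with 0, 16 and 8 reads in the RNA libraries. AXL stood at 0.97 ± 0.95 (adjusted p = 0.528), YAP1 at -0.50 ± 0.45 (adjusted p = 0.482), ANKRD1 at -0.65 ± 0.39 (adjusted p = 0.273) and TEAD1 at -0.01 ± 0.27 (adjusted p = 0.991). The sign of the TEAD1 value turned under several other settings.

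Whether the difference between cells and RNA itself depended on input was tested as an interaction. None of the 10 members passed (edgeR, 17.9% of 12192 genes called, 7.23% above and 10.7% below 0), none passed with DESeq2, and 1, AMOTL2, had an unadjusted p under 0.05 (interaction -0.81 ± 0.38, adjusted p = 0.159). The interaction was -1.02 ± 0.50 for CTGF (adjusted p = 0.175) and -0.59 ± 0.34 for CYR61 (adjusted p = 0.253). Library totals shifted the all-gene median interaction by -0.26 and gave 440 genes above and 1987 below 0 in place of 882 and 1306.

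Between pools of 100 and 10 cells, 31.0% of 11514 genes were called, 13.6% higher and 17.4% lower in 100 cells. With no replicate block, CTGF was the 1 member called, with a log2 fold change of -1.04 ± 0.36 in 100 against 10 cells (edgeR adjusted p = 0.0395). CYR61 (-0.76 ± 0.28, adjusted p = 0.0508), AMOTL2 (-0.76 ± 0.32, adjusted p = 0.0842) and WWTR1 (-0.62 ± 0.27, adjusted p = 0.104) stood on the same side of 0 and did not pass. Ranges did not overlap for these 4 and AMOTL1, 5 of 10 members, against 46.9% of all genes. With the replicate number as a block, which the libraries of these pools share (correlations of deviations 0.127, 0.372 and 0.530), all 4 passed: CTGF with an adjusted p of 0.00225, CYR61 with 0.0239, AMOTL2 with 0.0381 and WWTR1 with 0.0396. The fit with the block called 2149 genes higher and 2571 lower, in place of 1568 and 1999. The CTGF call was lost when the near-identical first and second 100-cell libraries were summed (adjusted p = 0.104), without either of them (0.176 and 0.097), and without the 10-cell library 2 or 3 (0.0708 and 0.195). Library totals shifted the all-gene median by -0.26, giving 851 higher and 3119 lower genes in place of 1568 and 1999.

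The pools of 50 cells lay between or beside these in mean level. CYR61 had 11.8, 13.5 and 11.3 CPM in 100 cells, 21.7, 12.1 and 19.1 CPM in 50 cells and 19.4, 34.1 and 21.0 CPM in 10 cells. AMOTL2 had 8.76, 10.996 and 6.84 CPM in 100 cells, 13.1, 12.9 and 11.7 CPM in 50 cells and 20.9, 20.8 and 11.8 CPM in 10 cells. Every library of 50 and 10 cells lay above every 100-cell library for AMOTL2, and for CYR61 all but the 50-cell library with 12.1 CPM did.

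**Figure D2:**
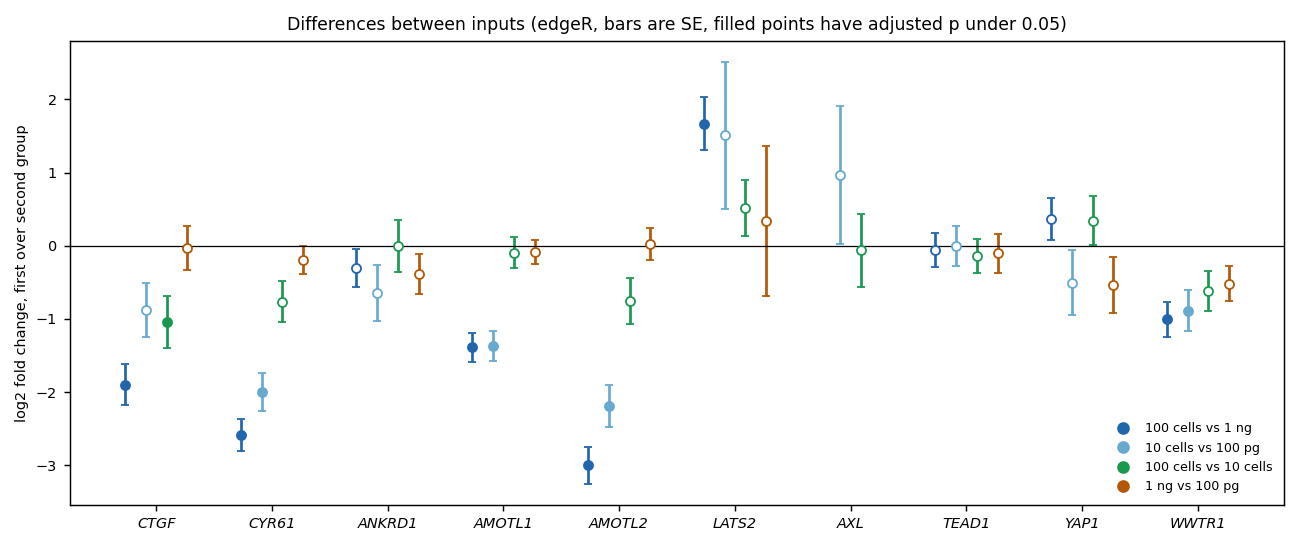
Log2 fold change (vertical axis, first group over second) of each gene in 4 comparisons of the input series, with the SE as bars and filled points where the edgeR adjusted p was under 0.05. AMOTL2 and CYR61 lie at or below -2.0 in both comparisons of cells with RNA, TEAD1 lies near 0 in all 4 comparisons, and no gene is filled for 1 ng against 100 pg.

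Diluting purified RNA from 1 ng to 100 pg gave no called difference in the members. None of the 9 tested was called by edgeR, and none had an unadjusted p under 0.05, in a comparison that called 0.0262% of 11469 genes and had 7.74% at an unadjusted p under 0.05. YAP1 was the 1 member whose ranges did not overlap, at 8.24 to 10.5 CPM against 11.9 to 17.0 CPM, as was the case for 1717 of 11469 genes. DESeq2 called none of the members and 34 genes. The log2 fold changes ran from -0.54 ± 0.38 for YAP1 (adjusted p = 0.79) to 0.34 ± 1.03 for LATS2 (adjusted p = 0.971).

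At 10 pg, about the RNA of a single cell by the usual estimate, the 2 libraries parted and were not tested. AMOTL2 had 243 reads in one and 0 in the other, where a count of 0 allows up to 3 reads. WWTR1 had 22 and 0 reads, YAP1 2 and 0, LATS2 57 and 1, and CYR61 146 and 23. TEAD1 had 3 and 2 reads, 1.60 and 0.863 CPM, below each of the 6 libraries of 1 ng and 100 pg, which held 30.4 to 50.8 CPM. AMOTL1 kept 180 and 170 reads, at 96.0 and 73.4 CPM, and ANKRD1 60 and 58 reads.

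Genes of the surrounding pathway were followed with lists. In 100 cells against 1 ng, the 20 Hippo kinases and adaptors split into 3 higher and 9 lower (edgeR), so 12 of 20 were called where 62.7% of all genes were. TAOK2, an upstream kinase of the pathway, fell by 2.79 ± 0.27 on the log2 scale (adjusted p = 6.02e-08), NF2, the merlin tumour suppressor that recruits LATS kinases to the membrane, fell by 1.17 ± 0.19 (adjusted p = 3.3e-05), and SAV1, the scaffold of the MST kinases, rose by 0.99 ± 0.31 (adjusted p = 0.0104). Of 7 TEAD factors and VGLL cofactors 5 were tested, with 1 higher and 3 lower. TEAD4 fell by 1.60 ± 0.22 (adjusted p = 4.42e-06) and VGLL4, a cofactor that competes with YAP for TEAD, by 2.69 ± 0.32 (adjusted p = 9.43e-07), whereas TEAD1 stayed at -0.06. For TEAD4 the interaction with input also passed, at -1.47 ± 0.31 (adjusted p = 0.00261).

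Of 16 other YAP and TEAD targets 12 were tested, with 4 higher and 5 lower in 100 cells and a median log2 fold change of 0.02, against -1.01 for the members. Among all genes tested in 100 cells against 1 ng, 29.7% were called higher and 33.1% lower in cells. GADD45A, a DNA damage response gene, rose by 1.09 ± 0.25 (adjusted p = 0.00084) and FOXF2, a forkhead factor, by 1.21 ± 0.32 (adjusted p = 0.00305), while NUAK2, a kinase, fell by 2.54 ± 0.50 (adjusted p = 0.000252). The lower level was therefore not shared by all targets of the pathway. Of 8 immediate early genes tested 7 were lower and none higher, with JUN, an AP-1 subunit, falling by 3.84 ± 0.21 (adjusted p = 1.3e-10). Of 8 actin and contractile genes tested 6 were lower and none higher, with FLNA, the actin crosslinker filamin A, falling by 3.73 ± 0.21 (adjusted p = 1.47e-10). Of 8 HEK293T markers tested 6 were lower as well, and the 10 markers summed to 2283 to 2744 CPM in 1 ng against 925 to 1061 CPM in 100 cells. B cell markers summed to 3.46 to 5.21 CPM against 6.72 to 10.6 CPM, with CD22 and PTPRC at 0 reads in both. Their part in the values of the members was not tested. At the lower input the calls were 0 higher and 3 lower of 20 Hippo genes, none of 5 TEAD and VGLL genes, 0 and 2 of 13 other targets, 0 and 3 of 9 immediate early genes, and 0 and 5 of 8 actin genes. Of all genes tested there, 7.81% were called higher and 11.5% lower, and the Hippo and other target counts are near that share.

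In single HEK293T cells the same genes varied from cell to cell to very different degrees. CTGF, the secreted target, had reads in 23 of 39 cells and ranged from 0 to 403 CPM, with a median of 5.13 CPM. Its SD of log2(CPM + 1) within a protocol group was 2.77, larger than that of 99.9% of the 4973 genes of like mean level, whose median SD was 1.82. AMOTL2 followed with an SD of 2.46 and reads in 33 cells (0 to 187 CPM), then WWTR1 with 2.29 and 35 cells (0 to 160 CPM). CYR61 (1.82, 30 cells, 0 to 151 CPM), YAP1 (1.87, 37 cells, 0 to 95.3 CPM) and TEAD1 (1.55, 39 cells, 0.115 to 190 CPM) were near or below the median of like genes. AXL had the smallest SD, 0.71, lower than that of all but 1.05% of like genes.

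**Figure D3:**
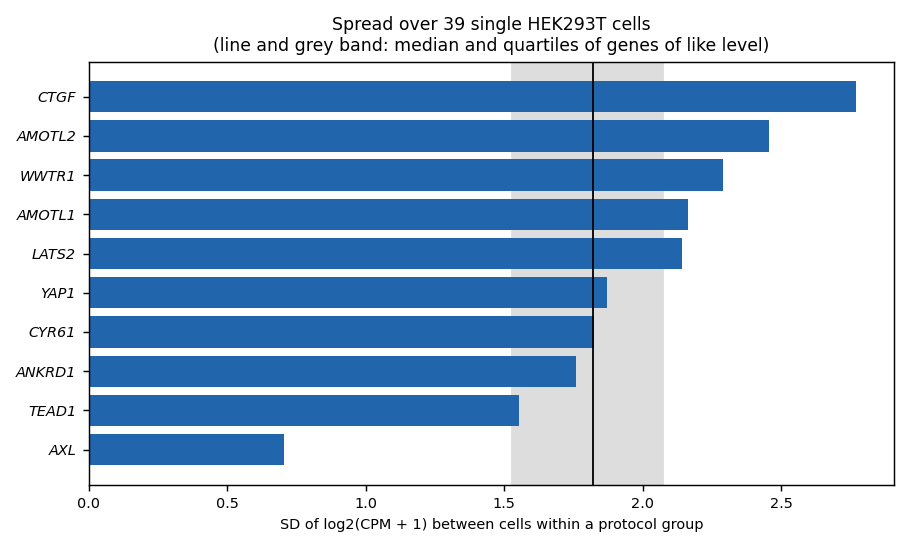
SD between cells of log2(CPM + 1) within the protocol groups (horizontal axis, from 0) for each of the 10 genes over 39 single HEK293T cells. The line is the median and the grey band the quartiles (1.53 to 2.07) of 4973 genes with a mean of 8.19 to 49.3 CPM. CTGF stands at 2.77 and AXL at 0.71, with the other 8 genes between.

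The members did not rise and fall together from cell to cell. The highest Spearman correlation of any pair over the 39 cells, computed on log2(CPM + 1) centred within the protocol groups, was 0.34, between CTGF and CYR61, which shared 18 cells at 1 CPM or more. The lowest was -0.32, between CTGF and AXL. YAP1 and WWTR1 stood at 0.07, and TEAD1 at 0.08 with YAP1 and -0.02 with WWTR1. At 1 CPM or more, 26 cells held both YAP1 and WWTR1, 4 held YAP1 alone, 7 held WWTR1 alone and 2 held neither. CTGF was at 1 CPM or more in 16 of the 26 cells with both in 2 of the 11 cells with 1 of them and in 2 of the 2 cells with neither. Both values of a pair come from the same library and share its depth, so these correlations only describe these cells.

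The gene closest to each member in these cells was also looked up. Among 8249 candidate genes, the 1 whose pattern over the 39 cells was most like CYR61 was PHF14 (Spearman 0.78), and for AMOTL1 it was TOMM40 (0.77). The closest genes were RALGAPA2 for TEAD1 (0.65), NME4 for WWTR1 (0.64), MITD1 for AMOTL2 (0.62), C1orf35 for LATS2 (0.59), DHX57 for ANKRD1 (0.59), ZBTB44 for CTGF (0.58), FAM53C for YAP1 (0.57) and FAM126A for AXL (0.55). Each is the highest of 8249 values, so it cannot be set against the values of the few member pairs.

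**Figure D4:**
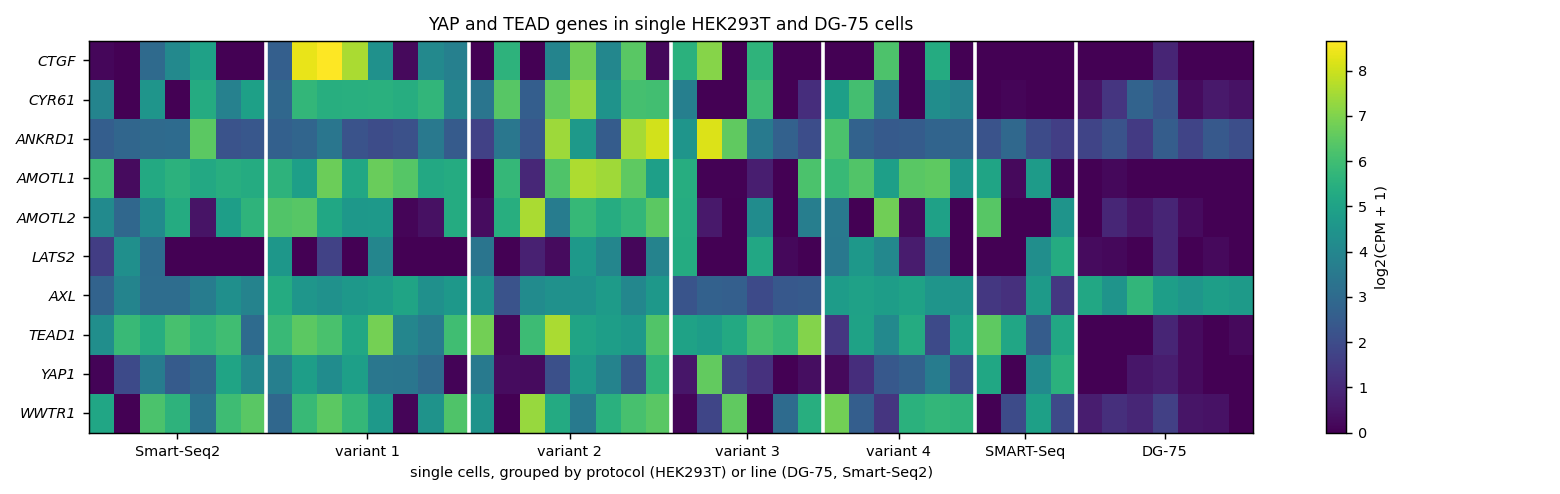
Log2(CPM + 1) (colour scale) of the 10 genes (rows) in 46 single cells (columns), 39 HEK293T cells grouped by protocol and 7 DG-75 cells at the right. CTGF is dark in all 4 SMART-Seq cells and brightest in variant 1, with 403 CPM at most, and DG-75 cells are dark for most genes, with AXL and ANKRD1 brightest.

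Protocols were compared by pooling the reads of each group's cells, since each group is 1 sample. The 2-fold limit and the log2 ratios have 1 CPM added to both sides. Ratios and fold values, here and for DG-75 below, are of summed CPM with nothing added, so the 2 scales part at low levels. CYR61 in SMART-Seq, for example, was 1051-fold lower by summed CPM and 18.4-fold lower with 1 CPM added. All of these comparisons share the same 7 Smart-Seq2 cells. Those 7 cells held CTGF at 8.01 CPM, with 0.121, 0, 7.001, 15.9, 29.8, 0 and 0 CPM in the single cells. The 8 cells of variant 1 held 102 CPM, with a lowest of 0.167, a median of 17.9 and a highest of 403 CPM, a ratio of 12.7 (95% Poisson interval 11.7 to 13.8, counting error only), and the ranges of the cells overlapped. Smart-Seq2 replicate 5 carried 331 of the 626 CTGF reads of its group, and without it the ratio was 23.1. CTGF was also past 2-fold higher in variant 2 (35.6 CPM), variant 3 (48.3 CPM) and variant 4 (18.5 CPM). Without that cell the ratio went from 4.45 to 8.095 in variant 2, from 6.02 to 10.96 in variant 3 and from 2.31 to 4.21 in variant 4, and without variant 3 replicate 2 it was 2.98 in variant 3. The value for variant 4 was within 2-fold without any 1 of 5 cells, and its log2 ratio was 0.21 without replicate 3 in place of 1.11. In the 4 SMART-Seq cells CTGF had 0 reads of 59.3 M, which makes it at least 158-fold lower when 3 reads over the group are taken as the floor, and at least 87.0-fold lower without Smart-Seq2 replicate 5. As 3 of the 7 Smart-Seq2 cells also had no CTGF read, the ranges overlapped here too.

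CYR61 had 1385 reads in the Smart-Seq2 cells (17.7 CPM; 13.8, 0, 21.9, 0, 39.3, 13.1 and 29.5 CPM in the single cells) and 1 read in the SMART-Seq cells, 1051-fold lower with an interval of 188 to 41546. Without the SMART-Seq cell that held that read it was at least 273-fold lower. It was 2.08-fold higher in variant 1 and 3.73-fold higher in variant 2. WWTR1 was 4.82-fold lower and AMOTL1 2.93-fold lower in SMART-Seq, while LATS2 was 5.76-fold and YAP1 2.68-fold higher there, and for each of these genes at least 1 SMART-Seq cell held under 1 CPM. WWTR1 was 23.6-fold lower without SMART-Seq replicate 3, and AMOTL1 4.45-fold lower without replicate 1. LATS2 was 2.54-fold higher without SMART-Seq replicate 4 and 9.84-fold higher without Smart-Seq2 replicate 2. YAP1 was within 2-fold without SMART-Seq replicate 4 (log2 ratio 0.80). ANKRD1 was 4.74-fold lower in SMART-Seq, but 1 Smart-Seq2 cell with 87.9 CPM carried most of its reads, and without that cell its log2 ratio was -0.49 in place of -1.98.

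Over all 10 members, SMART-Seq had 2 higher and 5 lower past 2-fold against 18.7% higher and 41.2% lower of all genes (59.8% in either direction), and no member's cell ranges were separate (10.7% of all genes). Variant 1 had 3 higher (CTGF, CYR61 and AXL) and 1 lower (ANKRD1) against 9.19% and 10.2% (19.4% in all). Ranges of cells were separate for AXL and for 0.147% of all genes, and ANKRD1 was at -0.01 without that same Smart-Seq2 cell. The CYR61 log2 ratio of 1.02 fell to between 0.76 and 1.00 without any 1 of 10 cells. Variant 2 had 5 higher (CTGF, CYR61, ANKRD1, AMOTL2 and LATS2) and none lower against 10.4% and 12.4% (22.8% in all), with no separate ranges (0.118% of all genes). AMOTL2 and LATS2 were within 2-fold without single cells, at a log2 ratio of 0.70 and 0.62 at the lowest. Variant 3 had 4 higher (CTGF, ANKRD1, LATS2 and YAP1) and 3 lower (AMOTL1, AMOTL2 and AXL) against 17.3% and 47.4% (64.8% in all), with separate ranges for AXL (10.8% of all genes). ANKRD1 was 5.36-fold higher in variant 2 and 5.41-fold in variant 3, and 16.7-fold and 16.9-fold without that Smart-Seq2 cell. Without variant 3 replicate 2 it was 2.09-fold higher in variant 3, and AMOTL1 went from 4.13-fold to 8.20-fold lower without replicate 6. LATS2 was at 0.89 without replicate 4, AMOTL2 at -0.76 without replicate 3 and AXL at -0.95 without replicate 4. AMOTL2 was also within 2-fold without variant 3 replicate 2 (-0.80) or Smart-Seq2 replicate 4 (-0.91) or 7 (-0.82). For AXL this also held without Smart-Seq2 replicate 6 (-0.96). The YAP1 value of variant 3 came from 1 cell with 2126 of the 2224 reads, and without it the log2 ratio went from 1.17 to -2.19. Variant 4 had 3 higher (CTGF, LATS2 and AXL) and 1 lower (TEAD1) against 12.3% and 12.1% (24.4% in all), with separate ranges for AXL (0.852% of all genes). LATS2 was at 0.86 without replicate 2. TEAD1 was within 2-fold without variant 4 replicate 1, 3 or 5, or Smart-Seq2 replicate 2, 4, 5 or 6 (log2 ratio -0.97 to -0.74). Some members within 2-fold also rested on 1 cell. By summed CPM, AXL went from 1.24-fold to 6.74-fold lower in SMART-Seq without replicate 3, and AMOTL2 from 1.03-fold higher to 3.03-fold lower without replicate 1. CYR61 in variant 3 went from 1.02-fold higher to 8.78-fold lower without replicate 4, and WWTR1 there from 1.796-fold to 8.36-fold lower without replicate 3. In variant 4, ANKRD1 went from 1.05-fold to 3.18-fold lower without replicate 1.

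Most of these genes had few reads in the B cell line. In DG-75 against Smart-Seq2 HEK293T cells, 9 of the 10 members were lower past 2-fold and 1, AXL, was higher, where 33.8% of all genes were lower and 25.1% higher (58.9% in all). The median log2 ratio of the members was -3.10, and that of all genes was -0.18.

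The co-activators and TEAD1, 1 of their DNA partners, had few reads in any DG-75 cell. TEAD1 had 0, 0, 0, 4, 1, 0 and 1 reads in the 7 cells, 0.164 CPM in all, against 18.2, 56.9, 40.8, 68.8, 50.5, 62.6 and 7.15 CPM in the HEK293T cells, which is 247-fold lower (95% Poisson interval 113 to 673). YAP1 had 5 reads in all, 68.1-fold lower (29.04 to 210.3), and WWTR1 29 reads in all, 59.5-fold lower (41.3 to 88.9). AMOTL1 had 1 read in 1 of the 7 cells against 3297 reads, a ratio of 1548 with an interval of 278 to 61154. For TEAD1 and AMOTL1 the ranges of the cells did not overlap, which held for 6.5% of all genes. Without DG-75 replicate 4, TEAD1 was 644-fold and YAP1 148-fold lower, and without replicate 2, which held the AMOTL1 read, AMOTL1 was at least 405-fold lower. For YAP1 and WWTR1 they overlapped, since single HEK293T cells had as little as 0.0604 and 0 CPM.

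Of the targets in DG-75, CTGF had 4 reads, all in replicate 4 (73.5-fold lower, interval 28.6 to 270.5), AMOTL2 had 13 reads (66.3-fold lower, 38.7 to 125) and LATS2 7 reads (14.8-fold lower, 7.04 to 37.1). CTGF was 40.4-fold lower without Smart-Seq2 replicate 5, and AMOTL2 113-fold lower without DG-75 replicate 2. LATS2 was 29.97-fold lower without DG-75 replicate 4 and 8.63-fold without Smart-Seq2 replicate 2. CYR61 had 51 reads with at least 1 in each cell, 0.202 to 5.81 CPM (12.7-fold lower, 9.64 to 17.2). ANKRD1 had 125 reads, 1.79 to 4.84 CPM in every cell (5.06-fold lower, 4.21 to 6.13), but its log2 ratio of -2.05 was -0.57 without the 1 HEK293T cell with 87.9 CPM. DG-75 libraries were shallower, with a median of 5.002 M reads against 11.7 M. When every library was thinned to 1.8 M reads, TEAD1 had a read in 38 of 39 HEK293T cells and 1 of 7 DG-75 cells, AMOTL1 in 32 and 0, YAP1 in 31 and 3, WWTR1 in 33 and 5, CTGF in 20 and 1, CYR61 in 30 and 3, AMOTL2 in 28 and 3, and LATS2 in 19 and 0. Unthinned, the counts were 39 and 3 for TEAD1, 37 and 1 for AMOTL1, 37 and 3 for YAP1, 35 and 6 for WWTR1, 23 and 1 for CTGF, 30 and 7 for CYR61, 33 and 4 for AMOTL2, and 23 and 4 for LATS2. These HEK293T counts cover all protocols, whereas the fold values use the 7 Smart-Seq2 cells. In those 7 cells the thinned counts were 7 for TEAD1 and AMOTL2, and 6 for AMOTL1, YAP1 and WWTR1. They were 5 for CYR61, 3 for CTGF and 2 for LATS2. Unthinned, LATS2 had a read in 3 of the 7 Smart-Seq2 HEK293T cells, with a median of 0 CPM, and in 4 of the 7 DG-75 cells.

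Of 15 other YAP and TEAD targets compared, 11 were lower and none higher in DG-75, with CRIM1, a transmembrane BMP regulator, at 0 reads against 17.0 CPM. Of 19 Hippo kinases and adaptors, 11 were lower and 4 higher. AMOT, the founding angiomotin, was at 0.136 CPM against 151 CPM, while RASSF1, a scaffold of the MST kinases, was at 51.7 CPM against 11.1, and the kinase TAOK3 at 97.6 CPM against 25.6. Of 6 TEAD factors and VGLL cofactors compared, 1 was higher, VGLL4 at 75.3 CPM against 21.8, and 3 were lower, TEAD2 at 0.736 CPM against 10.1 among them. TEAD4, another TEAD factor, held 69.3 CPM in the Smart-Seq2 HEK293T cells and was within 2-fold in DG-75.

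AXL was the 1 member higher in DG-75 than in Smart-Seq2 HEK293T cells. This receptor tyrosine kinase had 35.2, 21.6, 51.0, 27.8, 22.2, 28.1 and 25.4 CPM in the 7 DG-75 cells and 5.80, 14.0004, 7.60, 7.47, 11.5, 18.8 and 13.6 CPM in the 7 Smart-Seq2 HEK293T cells. Every DG-75 cell lay above every Smart-Seq2 HEK293T cell, and the summed ratio was 2.70 (95% Poisson interval 2.46 to 2.96). Against all 39 single HEK293T cells, which held 15.2 CPM in sum against 27.8 CPM in DG-75, its log2 ratio was 0.82 and within 2-fold, and the other 9 members stayed past 2-fold lower. All 39 HEK293T cells also held AXL reads, 19.4 to 39.4 CPM in variant 1, 21.3 to 30.7 CPM in variant 4, 2.83 to 5.42 CPM in variant 3, and 1.30 to 1.64 CPM in 3 of the 4 SMART-Seq cells with 25.6 CPM in the fourth. In bulk inputs of the same line AXL had 0 to 0.697 CPM in 1 ng of RNA, 0.244 to 2.79 CPM in 100 pg, 6.40 and 6.04 CPM in 10 pg, and 1.98 to 3.46 CPM in 100 cells. The 100-cell pools overlapped variant 3 and lay above 3 of the 4 SMART-Seq cells. The part of protocol and input in these levels was not tested.

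**Figure D5:**
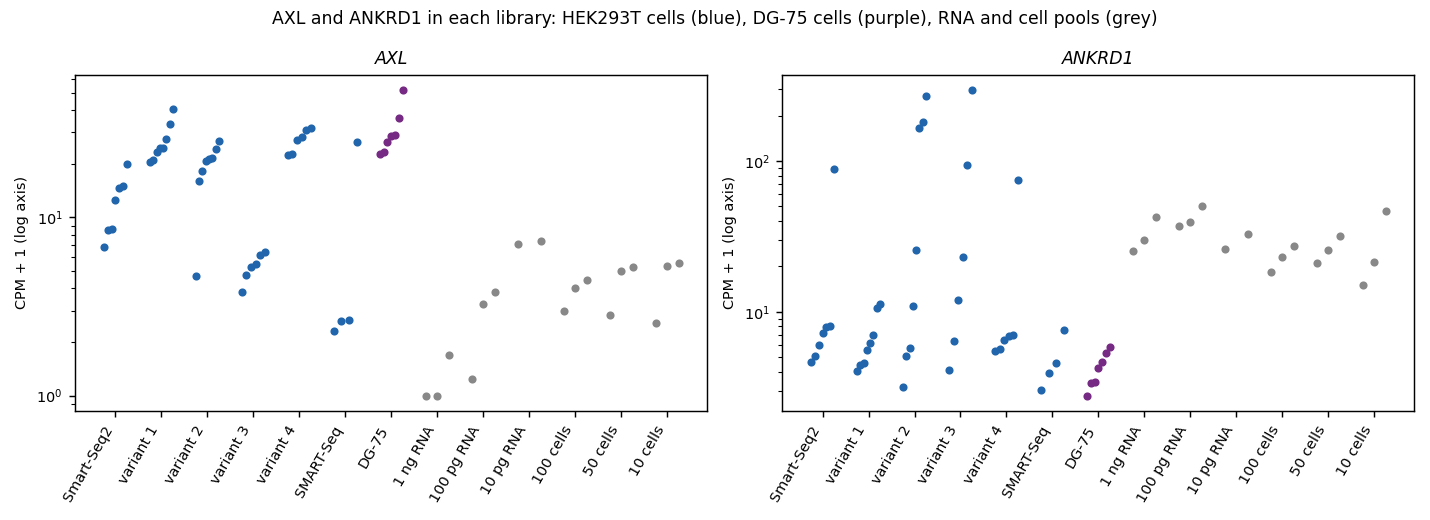
CPM + 1 (vertical axes, log) of AXL (left) and ANKRD1 (right) in each of the 63 human libraries, 1 point a library, by group. AXL is at 21.6 to 51.0 CPM in DG-75 cells and at most 3.46 CPM in 1 ng of RNA or 100 cells, and ANKRD1 shows a floor with a few HEK293T cells far above it.

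ANKRD1, a stress-responsive target, also had reads in every single cell, but with a different shape. In 28 of the 39 HEK293T cells it lay between 2.03 and 9.90 CPM, close to the 1.79 to 4.84 CPM of DG-75. In 4 cells it lay between 10.2 and 24.5 CPM, and in 7 cells it was over 50 CPM, from 73.5 to 295 CPM. The 7 were 1 Smart-Seq2 cell, 3 cells of variant 2, 2 of variant 3 and 1 of variant 4, and none of variant 1 or SMART-Seq. In the pools of 100, 50 and 10 cells the gene was at 14.1 to 45.5 CPM and in 1 ng and 100 pg of RNA at 24.4 to 49.5 CPM, between the floor and these cells.

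Reads of 6 members can be shared with another annotated gene. For genes on the opposite strand this depends on the strand setting of the authors' counting, which is not given. GENCODE lists an antisense gene over exons of CTGF, AMOTL1, AXL, YAP1 and WWTR1 (WWTR1-AS1). It also lists a processed pseudogene, RPL39P5, over an exon of AMOTL2 on the same strand, which no strand setting separates. How many reads came from these could not be told from gene counts.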

How the data were processed

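The 63 human libraries had 1 table each. Per the file headers they hold reads per gene, used as counts, and RPKM made by the authors, used only for levels between genes and as an alternative. STAR and hg19 are named in the submitters' processing notes. No source used here gives the STAR version, the counting rule or its strand. Entries of the same symbol were summed, and library depth was taken as all gene reads together. Input groups were compared by quasi-likelihood tests in edgeR 4.0.16 (R 4.3.3, TMM, filterByExpr, two-sided, Benjamini-Hochberg over all genes tested, threshold 0.05), with only the compared groups in each fit. DESeq2 1.42.0 was an alternative. The edgeR step was run on simulated counts with known changes in a small set of genes and the same dispersion for all genes. Such a run checks the code and does not give the error rates in these data. Single-cell groups were summed, with exact 95% Poisson intervals and a 2-fold limit on log2(CPM + 1), where the higher group reached 1 CPM. Their ratios and fold values had no CPM added. Without molecular identifiers, such intervals and floors hold counting error alone. All 10 genes were looked up in every comparison, but the text does not print each value. Other list genes were chosen by a rule of size and test, and only some of those chosen are named. TEAD4 in DG-75 was named outside that rule. The main fits had no replicate block. In the pools of 100 and 10 cells the deviations of same-numbered libraries correlated at 0.127, 0.372 and 0.530, so replicate numbers may pair them. The fit with the block is given there as an alternative. Replicate numbers were not taken to pair other groups, with correlations from -0.115 to 0.0491. Figures were drawn with matplotlib 3.10.9. The members and the gene lists were chosen with earlier results of these data known.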

Additional observations from a re-analysis of the deposited data

Results flagged for a closer look

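Within groups of 4 to 8 single cells, 13 single values lay apart from the rest of their group by Dixon's criterion, of 69 groups tested. For normally distributed values chance flags about 1 in 20 groups, which is 3.45 here, but values with many zeros are not of that kind. A group with reads in only 1 cell is always flagged, as were CTGF and AMOTL1 in DG-75 and CYR61 in SMART-Seq. The 13 flags are therefore not an excess over chance that can be judged. High values were ANKRD1 in Smart-Seq2 replicate 5 (87.9 CPM, others 3.67 to 7.09 CPM), ANKRD1 in variant 4 replicate 1 (73.5 CPM, others 4.53 to 6.04 CPM), YAP1 in variant 3 replicate 2 (95.3 CPM, others 0 to 2.23 CPM) and AXL in SMART-Seq replicate 3 (25.6 CPM, others 1.30 to 1.64 CPM). Low values were AMOTL1 in Smart-Seq2 replicate 2 (0.189 CPM, others 36.5 to 62.2 CPM), AXL in variant 2 replicate 2 (3.68 CPM, others 14.98 to 26.0 CPM), TEAD1 in variant 2 replicate 2 (0.115 CPM, others 24.5 to 190 CPM) and YAP1 in variant 1 replicate 8 (0.0691 CPM, others 6.95 to 28.7 CPM). The other 5 rest on 1 to 4 reads. CTGF, LATS2 and TEAD1 in DG-75 replicate 4 had 0.842 CPM each, AMOTL1 in DG-75 replicate 2 had 0.127 CPM, and CYR61 in SMART-Seq replicate 2 had 0.0762 CPM.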

How the results depend on the processing

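In 100 cells against 1 ng other alternatives gave 6 or 7 members called, and 1 fit of all 6 input groups gave 5, where LATS2 and WWTR1 were lost and AXL was added. In 10 cells against 100 pg the count was 2 with all 6 input groups in 1 fit. In 100 against 10 cells it was 0 with DESeq2 size factors, with all 6 groups in 1 fit, with the trend of length and GC removed and with the near-identical 100-cell libraries summed (chosen after seeing the data), and 4 with library totals or the replicate block.
The TEAD1 value of 10 cells against 100 pg turned to 0.0126 with size factors, 0.0138 with library totals, 0.0127 with DESeq2, 0.0013 with no filter and 0.16 without the length and GC trend. In 100 against 10 cells ANKRD1 turned to 0.0372 with size factors, 0.0411 with DESeq2, 0.0167 with all groups and 0.12 in the replicate block, AXL to 0.52 without the trend and 0.0210 in the block, and AMOTL1 to 0.0927 without the trend. In 1 ng against 100 pg AMOTL2 turned to -0.13 without the trend, -0.12 in the block and -0.13 with no block on the same libraries, and TEAD1 to 0.0402 without the trend. The interaction of AMOTL1 turned to 0.0312 with size factors, 0.0303 with DESeq2, 0.0583 with and 0.0553 without the replicate block and 0.0159 with summed libraries, that of LATS2 to -0.10 with totals and -0.0313 in the block, that of TEAD1 to 0.0491 in the block and 0.0277 without, and that of WWTR1 to 0.22 in both. None of these values passed the test. The cause was not tested.
Replicate numbers did not pair the other groups. In 10 cells against 100 pg a replicate block called 6 members and the same libraries without it 3, and in 100 cells against 1 ng the replicate block called 6.
Past 2-fold, variant 2 had 3 members with 5 CPM added, variant 3 had 4 with the mean of the cells or 5 CPM and 2 with mean RPKM, and variant 4 had 1 with 5 CPM or mean RPKM.
Leaving out 1 library at a time, members called ranged from 6 to 7, 3 to 5, 0 to 2, 0 to 0 and 0 to 0 in the order of 100 cells against 1 ng, 10 cells against 100 pg, 100 against 10 cells, 1 ng against 100 pg and the interaction, and past 2-fold from 9 to 10 in DG-75, from 6 to 8 in SMART-Seq, and from 3 to 4, from 3 to 6, from 6 to 8 and from 2 to 4 in variants 1 to 4. Values that changed sign ranged from -0.21 to 0.11 (TEAD1, 100 cells against 1 ng), -0.16 to 0.22 (TEAD1, 10 cells against 100 pg), -0.31 to 0.60 and -0.37 to 0.16 (ANKRD1 and AXL, 100 against 10 cells), -0.14 to 0.00499, -0.10 to 0.22, -0.23 to 0.33, -0.23 to 1.43 and -0.27 to 0.12 (AMOTL1, AMOTL2, CTGF, LATS2 and TEAD1, 1 ng against 100 pg), -0.11 to 0.0751, -0.92 to 0.75, -0.28 to 0.12 and -0.28 to 0.13 (AMOTL1, LATS2, TEAD1 and WWTR1, interaction), and -2.19 to 1.60 (YAP1, variant 3).
Counts of genes called moved over 1.5 times with all 6 groups in 1 fit (3849, 1117 and 1611 in the first 3 comparisons), in 10 cells against 100 pg on numbered libraries with no block (1285), in the interaction with the block (964) and without it (735), and in 1 ng against 100 pg (1 to 34). Low depth at 10 pg and in DG-75 limits what can be said of genes with few reads.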

Other observations

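The genes most like AXL over all 63 human libraries, chosen after their values were seen, were TNFSF13B, the B cell survival factor BAFF (Spearman 0.85 among 11757 candidates), FZD7, a Wnt receptor (0.84), RORA, a nuclear receptor (0.80), and BUB1B, a spindle checkpoint kinase (0.78). BUB1B had 1661 to 3554 CPM in DG-75 cells and 291 to 2446 CPM in variant 1 HEK293T cells, but 76.4 to 80.1 CPM in 100 lysed HEK293T cells and 115 to 182 CPM in 1 ng of RNA. FZD7 had 77.6 to 146 CPM in DG-75 cells and 101 to 188 CPM in variant 1 cells, against 6.31 to 7.70 CPM in 100 cells and 6.62 to 7.45 CPM in 1 ng of RNA. TNFSF13B had 4.82 to 22.8 CPM in DG-75 cells and 6.18 to 14.8 CPM in variant 1 cells, against 0.72 to 1.22 CPM in 100 cells. RORA had 20.2 to 63.5 CPM in DG-75 cells and 9.01 to 71.1 CPM in variant 1 cells, against 5.50 to 12.1 CPM in 100 cells and 2.92 to 7.67 CPM in 1 ng of RNA, so its variant 1 and 100-cell ranges overlapped. Within the protocol groups the 39 HEK293T cells gave Spearman values of 0.31 for TNFSF13B, 0.42 for FZD7, 0.35 for RORA and 0.37 for BUB1B with AXL. The libraries differ in line, protocol and depth, so these values are a description, and what sets the shared pattern was not tested. For ANKRD1 the closest gene over the 63 libraries was EIF5, at 0.60.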
